A study of Mus musculus with 60 samples.

Results

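Angptl7, Tent5b, Arl4d, Scube2, Cd59a and Adam33 are 6 of the 27179 genes counted in mid-colon RNA of mice with collagen-induced arthritis (CIA) and of naïve mice. They were chosen by their measured CIA and naïve levels, for a large difference in favour of CIA at all 6 times of day, so their difference between treatments is given here as a description with no test. All 6 were among the 18057 genes that passed edgeR's filter on low counts. Of those genes, 2904 (16.1%) had a higher fitted level in CIA mice at 6 of 6 times. Among the 1424 of them with a mean of at least 10 CPM (reads of the gene as a share of all counted reads, scaled per 1e6 reads) and a higher call in the test over all times, ordered by fold change, Angptl7 stood at rank 1, Tent5b at 5, Arl4d at 6, Scube2 at 10, Cd59a at 12 and Adam33 at 27.

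All mice were male DBA/1, kept under a light and dark cycle in which zeitgeber time 0 (ZT0) is lights on and ZT12 lights off. The 30 CIA mice were immunised at 9 to 10 weeks of age with bovine type II collagen in complete Freund's adjuvant and boosted with collagen on day 21, and the 30 naïve mice shared their cages. A 5 mm piece of mid-colon was taken every 4 h, from ZT0 to ZT20, with 5 mice per treatment and time, and this was 7 days after symptoms began in CIA mice. No injection of adjuvant or saline is described for the naïve mice, so arthritis and immunisation cannot be told apart. Each mouse gave 1 library, with 31382664 to 57564488 counts in CIA (median 45528580) and 25840240 to 61425974 in naïve mice (median 43267100).

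The colon wall holds an inner epithelium, connective tissue with vessels and immune cells, and an outer muscle coat of smooth muscle cells that encloses the enteric neurons and is covered by mesothelium. RNA of a piece of the whole wall mixes all of these, so a gene made by the muscle coat takes a larger share of the reads in a piece that holds more of that coat. The 6 genes do not form a pathway. Angptl7 encodes a secreted glycoprotein of the angiopoietin-like family, known in human and mouse eyes from the cornea and the outflow tissue. Tent5b encodes a non-canonical poly(A) polymerase, an enzyme family that lengthens the tails of mRNAs. Arl4d encodes a small GTPase related to the ARF proteins that brings cytohesins, the exchange factors of ARF6, to the plasma membrane. Scube2 encodes a secreted protein that helps cells to release lipid-bearing Hedgehog ligands. Cd59a encodes an inhibitor, anchored to the cell surface, of the membrane attack complex of complement. Adam33 encodes a membrane-bound metalloprotease of the ADAM family, and its human relative is known from genetic studies of asthma.

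In GRCm38.p6 (RefSeq), Angptl7 (gene 654812) lies at chr4:148495181-148500462 on the minus strand, inside the gene body of Mtor, which runs on the opposite strand, with 0 bases of shared exon. Mtor itself differed by -0.03 between treatments on the log2 scale (SE 0.025, edgeR adjusted p = 0.435). Tent5b (gene 100342) lies at chr4:133480133-133487940 on the plus strand and overlaps the antisense gene Gm13257 with 0 bases of shared exon. Arl4d (gene 80981) lies at chr11:101665541-101667832 on the plus strand, Scube2 (gene 56788) at chr7:109798690-109865679 on the minus strand, Cd59a (gene 12509) at chr2:104095753-104115410 on the plus strand and Adam33 (gene 110751) at chr2:131050819-131063814 on the minus strand. Whether the counting used strand is not given in the sources used here. The joined exon length ran from 1382 bases in Arl4d to 5394 bases in Adam33.

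The window from 250 bases before to 50 bases after the start site was at hand from RefSeq (GRCm38.p6) for 5 of the 6 genes, all but Adam33. Each window was searched on both strands for the CArG box bound by serum response factor, a regulator of smooth muscle genes, for the E-box CACGTG bound by clock proteins, for the palindromic glucocorticoid response element, for the cAMP response element TGACGTCA, for the GC box GGGCGG and for TATAAA. Of 32851 mouse promoters of the same length, 1.63% held a CArG box, 7.15% the E-box, 0.00913% the glucocorticoid element, 1.79% the cAMP response element, 35.7% a GC box and 13.6% TATAAA. Of the 5 windows, 1 held the cAMP response element and 2 held a GC box, and the other motifs were found in 0 of them. The windows of Angptl7, which leads the set by fold change, of Arl4d, with the cAMP response element 26 bases before the start, and of Scube2, with the most matches, are shown 5′ to 3′ on the strand of the gene with every match in capitals.
Angptl7, chr4:148500413-148500712, minus strand: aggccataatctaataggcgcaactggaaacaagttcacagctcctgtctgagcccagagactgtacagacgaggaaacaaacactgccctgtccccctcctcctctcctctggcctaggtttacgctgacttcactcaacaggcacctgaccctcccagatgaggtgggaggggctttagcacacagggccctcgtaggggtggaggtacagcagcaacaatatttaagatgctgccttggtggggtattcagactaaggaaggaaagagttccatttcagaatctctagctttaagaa
Arl4d, chr11:101665291-101665590, plus strand: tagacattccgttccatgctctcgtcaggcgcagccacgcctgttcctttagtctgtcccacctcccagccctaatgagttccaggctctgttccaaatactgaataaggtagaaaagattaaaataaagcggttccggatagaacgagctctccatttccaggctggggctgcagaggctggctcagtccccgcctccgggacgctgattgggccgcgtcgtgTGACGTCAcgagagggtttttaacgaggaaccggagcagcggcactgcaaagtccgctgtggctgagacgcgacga
Scube2, chr7:109865630-109865929, minus strand: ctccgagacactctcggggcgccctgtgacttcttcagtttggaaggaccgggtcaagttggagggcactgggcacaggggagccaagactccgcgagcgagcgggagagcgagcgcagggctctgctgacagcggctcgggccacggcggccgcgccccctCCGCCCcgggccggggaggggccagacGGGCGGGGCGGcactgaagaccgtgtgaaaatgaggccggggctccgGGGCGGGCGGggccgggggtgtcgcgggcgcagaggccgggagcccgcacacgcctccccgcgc
The Scube2 window held 5 GC boxes, of which 4 overlapped in neighbouring pairs, and the Angptl7 window held 0 matches of any of these motifs. A match of letters is a description of the window and not a site shown to be bound.

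Over the day, the level of each of the 6 genes was from 1.68-fold to 2.20-fold higher in CIA mice, and the ranges of the treatments overlapped in every gene. Levels are CPM after scaling by the trimmed mean of M-values, given as mean ± SD, with n = 30 mice per treatment. Log2 fold changes are CIA over naïve, from edgeR, with their SE.

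Angptl7, the secreted angiopoietin-like protein, had 12.7 CPM in the lowest, 61.9 in the median and 108.3 in the highest CIA library. In naïve libraries it had 2.90, 23.8 and 72.2 CPM. The CIA mean of 56.5 ± 26.8 CPM stood beside a naïve mean of 25.6 ± 14.8 CPM, with a log2 fold change of 1.1396 (SE 0.22). Of the 30 CIA libraries, 24 lay above the naïve median, 8 above the highest naïve library (ZT16 replicate 1) and 18 above the next (48.6 CPM). Angptl7 was the most variable of the 6 genes between mice of the same treatment and time, with an SD of 0.91 on the log2 scale against 0.39 for Adam33, the least variable.

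By time, the 5 CIA libraries had 15.9, 21.2, 33.9, 48.3 and 67.0 CPM of Angptl7 at ZT0, against 2.90, 10.0, 19.1, 23.1 and 27.8 CPM in the 5 naïve libraries. At ZT4 the CIA libraries had 12.7, 29.8, 34.8, 55.999 and 97.8 CPM and the naïve libraries 7.37, 9.34, 15.4, 33.3 and 48.6 CPM. At both times the treatments overlapped, and the lowest CIA library lay within the naïve range. At ZT8 the CIA libraries had 22.7, 67.5, 69.8, 78.6 and 85.2 CPM and the naïve libraries 21.7, 22.8, 24.5, 26.7 and 33.8 CPM, so 4 of 5 CIA libraries lay above every naïve library. At ZT12 the CIA libraries had 47.2, 61.8, 62.0, 104.4 and 108.3 CPM and the naïve libraries 7.08, 35.6, 36.8, 40.99 and 47.97 CPM, with the lowest CIA library just under the highest naïve library. At ZT16 the CIA libraries had 42.02, 63.3, 70.8, 72.7 and 84.8 CPM and the naïve libraries 6.43, 24.99, 30.3, 30.7 and 72.2 CPM. At ZT20 the CIA libraries had 19.5, 19.6, 60.2, 62.4 and 73.3 CPM and the naïve libraries 15.9, 18.4, 19.9, 20.4 and 34.7 CPM. The CIA libraries at ZT20 split into a pair at the naïve level and 3 above every naïve library. The log2 fold change ran from 1.02 at ZT4 and ZT16 to 1.32 (SE 0.29) at ZT8. Single libraries moved the smaller values: at ZT4 it was 0.55 without CIA ZT4 replicate 3 and 1.499 without naïve ZT4 replicate 3, and at ZT16 it was 1.53 without naïve ZT16 replicate 1. The ranges of the treatments were apart at 0 of 6 times.

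**Figure D1:**
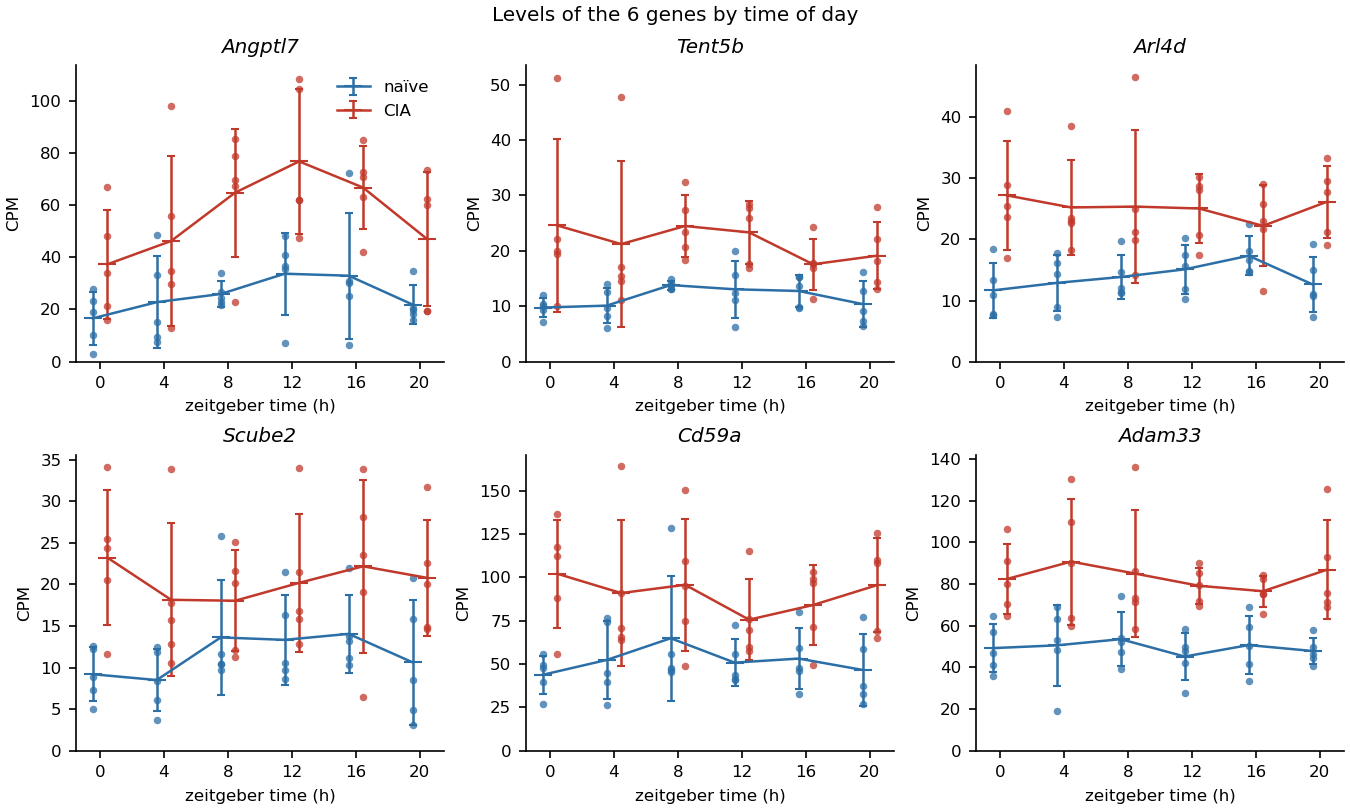
Level (CPM, linear axis from 0) of each gene at 6 zeitgeber times, in naïve (blue) and CIA (red) mice. Points are single libraries, lines join the means and bars are SD (n = 5 mice per treatment and time). The CIA mean lies above the naïve mean in every panel at every time, with overlapping points at most times.

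Tent5b, the poly(A) polymerase, had 9.96 CPM in the lowest, 18.97 in the median and 51.2 in the highest CIA library. The naïve libraries had 6.13, 12.2 and 19.98 CPM. The means were 21.7 ± 9.42 and 11.6 ± 3.41 CPM, a log2 fold change of 0.90 (SE 0.13), and 14 of 30 CIA libraries lay above the highest naïve library (ZT12 replicate 3) and 23 above the next (16.2 CPM). By time the CIA mean was 24.6 ± 15.6 CPM at ZT0, 21.2 ± 14.998 at ZT4, 24.5 ± 5.57 at ZT8, 23.3 ± 5.64 at ZT12, 17.6 ± 4.60 at ZT16 and 19.1 ± 6.03 at ZT20 (n = 5). The naïve mean was 9.75 ± 1.78, 10.1 ± 3.18, 13.8 ± 0.814, 13.1 ± 5.14, 12.7 ± 2.82 and 10.4 ± 4.09 CPM at the same times. The wide spread in CIA at ZT0 and ZT4 came from a library of 51.2 CPM and a library of 47.8 CPM, while the other 8 libraries of those times had at most 22.2 CPM. At ZT8 the CIA libraries had 18.4, 20.7, 23.5, 27.4 and 32.5 CPM and the naïve libraries 13.02, 13.05, 13.8, 14.2 and 14.9 CPM, so every CIA library lay above every naïve library. The log2 fold change ran from 0.46 at ZT16 to 1.33 at ZT0, where it was 0.88 without CIA ZT0 replicate 2. At ZT4 it was 1.07 with all libraries and 0.53 without CIA ZT4 replicate 3.

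Arl4d, the ARF-like GTPase, had 11.5 CPM in the lowest, 23.7 in the median and 46.6 in the highest CIA library. The naïve libraries had 7.23, 14.5 and 22.5 CPM. The means were 25.2 ± 7.63 and 13.9 ± 4.19 CPM, a log2 fold change of 0.86 (SE 0.11), and 19 of 30 CIA libraries lay above the highest naïve library. By time the CIA mean was 27.2 ± 8.88 CPM at ZT0, 25.2 ± 7.73 at ZT4, 25.4 ± 12.5 at ZT8, 25.1 ± 5.64 at ZT12, 22.2 ± 6.63 at ZT16 and 26.2 ± 5.93 at ZT20. The naïve mean was 11.7 ± 4.47, 12.9 ± 4.53, 13.9 ± 3.601, 15.1 ± 4.06, 17.3 ± 3.20 and 12.6 ± 4.57 CPM. The naïve mean was highest where the CIA mean was lowest, at ZT16, and the log2 fold change there was 0.36 (SE 0.22) against 1.22 (SE 0.28) at ZT0. At ZT4 the CIA libraries had 18.3, 22.8, 23.0, 23.6 and 38.6 CPM and the naïve libraries 7.35, 8.95, 14.3, 16.1 and 17.8 CPM, with no overlap.

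Scube2, the Hedgehog release factor, had 6.42 CPM in the lowest, 20.1 in the median and 34.1 in the highest CIA library. The naïve libraries had 3.07, 10.5 and 25.8 CPM. The means were 20.4 ± 7.80 and 11.6 ± 5.45 CPM, a log2 fold change of 0.82 (SE 0.16), and 6 of 30 CIA libraries lay above the highest naïve library (ZT8 replicate 2) and 11 above the next (21.98 CPM). By time the CIA mean was 23.2 ± 8.13 CPM at ZT0, 18.1 ± 9.21 at ZT4, 18.0 ± 6.06 at ZT8, 20.2 ± 8.30 at ZT12, 22.2 ± 10.4 at ZT16 and 20.8 ± 7.00 at ZT20. The naïve mean was 9.20 ± 3.24, 8.51 ± 3.72, 13.6 ± 6.86, 13.3 ± 5.43, 14.1 ± 4.65 and 10.6 ± 7.496 CPM. The ranges overlapped at all 6 times, and the log2 fold change ran from 0.40 (SE 0.31) at ZT8 to 1.33 (SE 0.30) at ZT0. The value at ZT8 was 0.26 without CIA ZT8 replicate 5 and 0.77 without naïve ZT8 replicate 2.

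Cd59a, the complement inhibitor, had 48.8 CPM in the lowest, 89.6 in the median and 164.0 in the highest CIA library. The naïve libraries had 26.2, 47.1 and 128.7 CPM. The means were 90.7 ± 30.1 and 51.99 ± 20.9 CPM, a log2 fold change of 0.80 (SE 0.13). Every one of the 30 CIA libraries lay above the naïve median, while 3 lay above the highest naïve library (ZT8 replicate 2) and 16 above the next (79.9 CPM). By time the CIA mean was 102.1 ± 31.2 CPM at ZT0, 91.0 ± 42.2 at ZT4, 95.8 ± 38.2 at ZT8, 75.6 ± 23.3 at ZT12, 84.1 ± 23.1 at ZT16 and 95.6 ± 27.04 at ZT20. The naïve mean was 43.9 ± 11.1, 52.4 ± 22.3, 64.9 ± 35.9, 50.9 ± 13.5, 53.2 ± 17.6 and 46.7 ± 20.8 CPM. At ZT0 the ranges were apart by a small margin, 55.7 to 136.6 CPM in CIA against 26.7 to 55.6 CPM in naïve mice. The log2 fold change ran from 0.56 (SE 0.35) at ZT8 to 1.22 (SE 0.24) at ZT0. The value at ZT8 was 0.34 without CIA ZT8 replicate 5 and 0.97 without naïve ZT8 replicate 2.

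Adam33, the metalloprotease, had 58.3 CPM in the lowest, 77.4 in the median and 136.2 in the highest CIA library. The naïve libraries had 19.01, 49.05 and 74.4 CPM. The means were 83.5 ± 20.2 and 49.5 ± 12.3 CPM, a log2 fold change of 0.75 (SE 0.09), and 18 of 30 CIA libraries lay above the highest naïve library. By time the CIA mean was 82.4 ± 16.6 CPM at ZT0, 90.7 ± 30.2 at ZT4, 85.01 ± 30.3 at ZT8, 79.1 ± 8.65 at ZT12, 76.5 ± 7.48 at ZT16 and 86.9 ± 23.6 at ZT20. The naïve mean was 49.3 ± 11.6, 50.6 ± 19.4, 53.6 ± 12.97, 45.2 ± 11.4, 50.7 ± 13.98 and 47.9 ± 6.46 CPM. The log2 fold change ran from 0.59 at ZT16 to 0.86 at ZT20. Its ranges were apart at ZT12, 69.7 to 89.9 CPM in CIA against 27.8 to 58.4 CPM in naïve mice, and at ZT20, 69.1 to 125.7 against 40.8 to 57.9 CPM.

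Counted over genes and times, the CIA range lay above the naïve range for Cd59a at ZT0 (1.59% of all genes at that time), Arl4d at ZT4 (0.858%), Tent5b at ZT8 (0.327%), Adam33 at ZT12 (2.88%) and ZT20 (4.2%), and for 0 of the 6 genes at ZT16 (0.642%). The rule chose the genes by this contrast, so nothing is read from these counts. The order of the 6 time means within a treatment was not firm for any of the genes: of the 60 neighbouring pairs of means (5 in each of 12 orders), 60 lay closer than the larger of their SDs and 59 closer than the smaller. Per kilobase of exon, the naïve level was highest for Cd59a (28.7 CPM per kilobase), followed by Angptl7 (11.9), Arl4d (10.1), Adam33 (9.18), Tent5b (5.09) and Scube2 (2.78). In CIA mice the order on that scale was the same, from 50.1 CPM per kilobase for Cd59a to 4.92 for Scube2.

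Smooth muscle RNA differed between the treatments as well. The smooth muscle score, the mean log2 CPM of 26 muscle genes such as Acta2 (smooth muscle actin), Myh11 (smooth muscle myosin) and Des (desmin), was 9.15 ± 0.374 in CIA and 8.51 ± 0.416 in naïve mice and was higher in CIA at 6 of 6 times. All 26 of these genes were called higher in CIA by edgeR's quasi-likelihood test with Benjamini-Hochberg adjustment, against 17.6% of all genes, and 0 were called lower, against 20.4%. This list, like the other gene lists, was chosen with earlier results of these data known, so the count is a description. The level of Acta2 was 3151 ± 794 CPM in CIA against 1989 ± 531 CPM in naïve mice (0.66 on the log2 scale, SE 0.097). The summed level of the 26 genes ran from 18562 to 59754 CPM in CIA (median 37715) and from 10723 to 45927 CPM in naïve libraries (median 21302), and none of them was at 0 in any library. Of the 30 CIA libraries, 24 had a smooth muscle score below the highest naïve score, that of naïve ZT8 replicate 2, and 10 had one below the next naïve score (9.01). In RNA of a whole piece of colon, more cells of a type and more RNA per cell of that type cannot be told apart.

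Calls in the other cell type lists stand beside 17.6% of all genes called higher in CIA and 20.4% called lower. Counts near those shares are not read as changes. Of 20 enteric neuron genes 19 were called higher, of 10 enteric glia genes 6 higher and 1 lower, of 5 genes of interstitial cells of Cajal 2 higher, of 8 pericyte genes 5 higher and 1 lower, of 7 mesothelium genes 5 higher, and of 9 skeletal muscle genes 3 higher. Of 12 macrophage genes 11 were called lower, as were 5 of 10 T cell genes. CPM is a share of reads, so fewer such cells and more RNA of other cells cannot be told apart here. The paper reports comparable immune cell subsets by xCell, and no difference in myeloid or T cell proportions by flow cytometry of the lamina propria. The skeletal muscle score was higher in CIA at 4 of 6 times, with a CIA mean of 0.26 ± 0.96 and a highest CIA library of 5.13. The naïve mean was -0.03 ± 0.69, with a highest naïve library of 3.27, so single high libraries occurred in both treatments. Epithelium had 1 of 16 genes higher and 3 lower, and fibroblasts 0 of 14 higher and 2 lower. Endothelium had 0 of 12 either way, B cells 0 of 10 either way and adipocytes 0 of 8 higher and 2 lower.

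Whether the 6 genes followed the muscle share was asked within groups, so that the CIA contrast did not enter the fit: edgeR fitted the slope of each gene on the smooth muscle score with a separate mean for each of the 12 groups of treatment and time. All 6 genes had a positive slope past the threshold, against 18.9% of all genes. The 6 were chosen as risers, and muscle genes such as Myh11 (rank 23) and Actg2 (rank 34) stood in the same order of risers. A positive slope may thus be common among risers and is not particular to the 6. The share among the other risers was not tested. Scube2 had the steepest slope, 1.44 log2 CPM per unit of score (SE 0.098, adjusted p = 1.86e-17). Cd59a followed with 1.15 (SE 0.061, adjusted p = 8.18e-22) and Angptl7 with 1.02 (SE 0.25, adjusted p = 8.17e-04). Tent5b had 0.91 (SE 0.12, adjusted p = 7.85e-09), Arl4d 0.88 (SE 0.094, adjusted p = 5.76e-11) and Adam33 0.74 (SE 0.078, adjusted p = 4.38e-11). The median slope was -0.04 over all genes and 1.01 over the 26 muscle genes themselves, and the 6 genes lay at the 92.2 to 99.1 percentile of all slopes. Leaving out each library in turn kept all 6 calls.

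The strength of the relation differed among the 6. After the 12 group means were removed, the log2 level of Cd59a had a correlation of 0.93 with the smooth muscle score over the 60 libraries, Scube2 0.90, Adam33 0.81, Arl4d 0.80, Tent5b 0.73 and Angptl7 0.47. These values are descriptions, and the score and the gene share a library and its scaling. The scatter of Angptl7 shows in single libraries: naïve ZT0 replicate 5 had 2.90 CPM at a smooth muscle score of 8.52, near the naïve mean, and CIA ZT4 replicate 2 had 12.7 CPM at 9.21, near the CIA mean. At the low end of the score lay 3 naïve libraries, with scores of 7.52 (ZT20 replicate 5), 7.69 (ZT4 replicate 1) and 7.71 (ZT0 replicate 4), and these held the 3 lowest levels of Cd59a of all 60 libraries, 27.3, 26.2 and 26.7 CPM. Without these 3 libraries all 6 slopes were still called, from 0.74 for Adam33 to 1.42 for Scube2, with 1.13 for Angptl7.

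**Figure D2:**
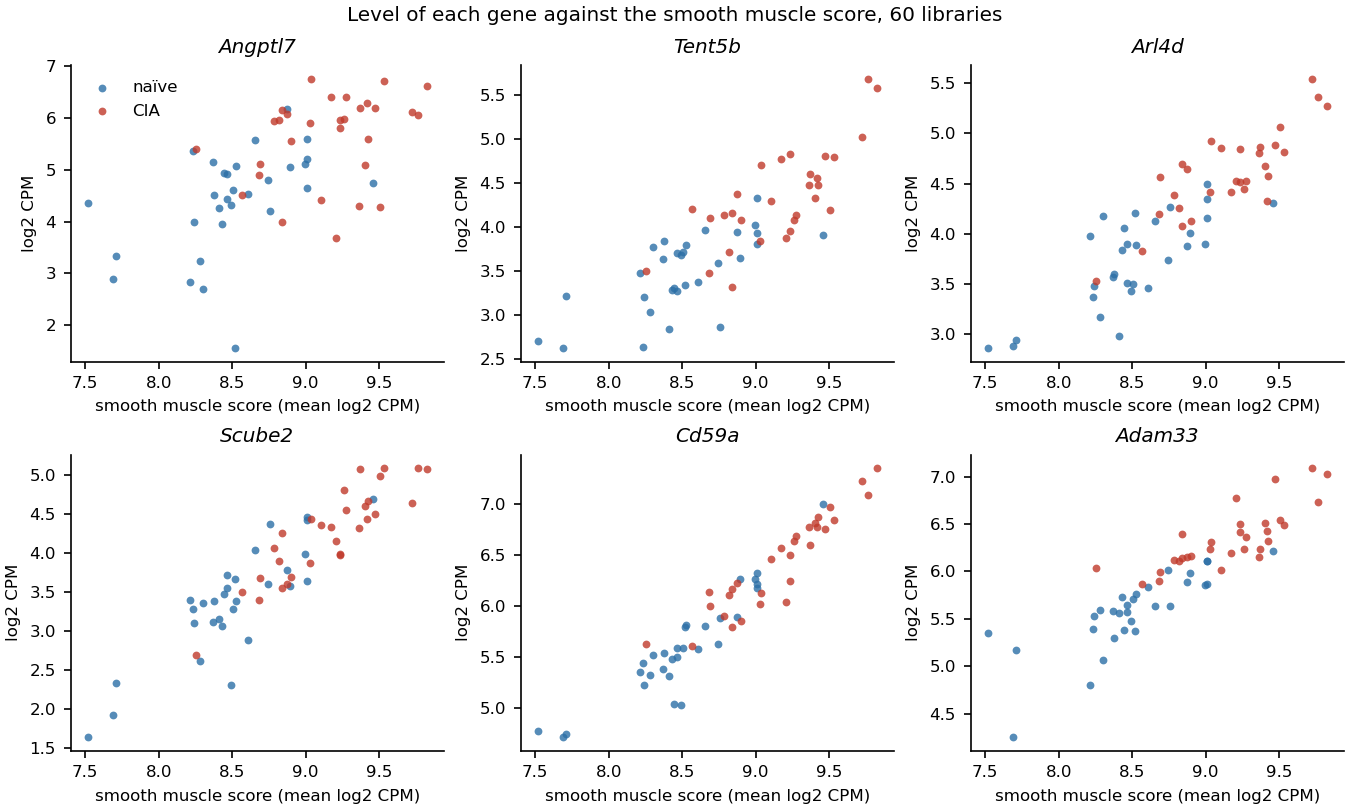
Level of each gene (log2 CPM) against the smooth muscle score (mean log2 CPM of 26 muscle genes) in 30 naïve (blue) and 30 CIA (red) libraries, 1 point per library. Cd59a and Scube2 form narrow bands in which both treatments lie, while Angptl7 scatters widely at a given score.

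The slopes could also be fitted within each treatment. In CIA mice all 6 genes passed the threshold (19.5% of all genes did so with a positive slope and 20.8% with a negative one). In naïve mice 5 of 6 passed (8.79% of all genes with a positive and 4.89% with a negative slope), and Angptl7 had a slope of 1.04 there (SE 0.36, adjusted p = 0.0571) and of 1.00 in CIA mice (SE 0.32, adjusted p = 0.0152). Cd59a had slopes of 1.13 and 1.18 in naïve and CIA mice, Scube2 1.43 and 1.44, Arl4d 0.82 and 0.95, and Adam33 0.76 and 0.71. Tent5b had the largest gap, 0.67 in naïve and 1.18 in CIA mice, a difference of 0.51 (SE 0.22, unadjusted p = 0.0244 and adjusted p = 0.412 by edgeR). The difference of the slope between treatments passed the threshold for 0 of 6 genes and for 0 of all 18057 genes (0%). At an unadjusted p under 0.05, edgeR had 1871 genes (10.4%) and 1 of the 6, Tent5b. The count over all genes became 1 without CIA ZT8 replicate 4, without CIA ZT20 replicate 5 or without naïve ZT4 replicate 1.

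Beside smooth muscle, the 6 genes varied with other lists within groups. All 6 had a positive slope past the threshold on the enteric neuron score, against 17.7% of all genes, from 0.68 for Adam33 to 1.201 for Scube2. Of the 20 genes in that list 19 were called higher in CIA, so such a slope may be common among risers. The share among the other risers was not tested. For Angptl7 the enteric neuron slope was 0.71 (SE 0.28, adjusted p = 0.0401), and the call was lost in 11 of the 60 fits that left out 1 library. Without naïve ZT4 replicate 1 it had a slope of 0.59 and an adjusted p = 0.125. It was also lost with limma voom (adjusted p = 0.106), with a replicate block (adjusted p = 0.110) and without the 2 libraries that stood apart, CIA ZT4 replicate 3 and naïve ZT8 replicate 2 (adjusted p = 0.105). On the mesothelium score Tent5b, Arl4d, Scube2 and Cd59a passed (12.4% of all genes with a positive and 9.48% with a negative slope), with slopes of 0.18 to 0.25. The genes with a negative slope numbered 1711 with all libraries and 729 without naïve ZT0 replicate 5. Leaving out 1 library left between 2 and 4 of these 4 calls, with 2 left in 7 of the fits, those without CIA ZT0 replicate 2, CIA ZT4 replicate 4, CIA ZT16 replicate 2, CIA ZT20 replicate 2, naïve ZT0 replicate 4, naïve ZT12 replicate 3 or naïve ZT12 replicate 4. Cd59a lost its mesothelium call in 20 of the 60 fits, Tent5b in 6, Scube2 in 1 and Arl4d in 0. The 7 mesothelium genes summed to only 4.27 CPM in the lowest naïve and 5.90 CPM in the lowest CIA library, and 1 of them was at 0 in at least 1 library. On the fibroblast score Tent5b, Scube2 and Cd59a passed (16.7%), of which Tent5b had a slope of 0.64 (adjusted p = 0.0366) with all libraries and of 0.42 (adjusted p = 0.168) without CIA ZT4 replicate 3. The Tent5b call was lost in 8 of the 60 fits that left out 1 library and with a replicate block (adjusted p = 0.0741). Arl4d missed the threshold with a slope of 0.54 (adjusted p = 0.0511), and it passed in 19 of those 60 fits, with limma voom, with DESeq2's size factors, with halved counts and with no filter on low counts (adjusted p from 0.0265 to 0.0409). On the endothelium score 0 of the 6 passed by edgeR (16.9% of all genes passed with a positive and 18.9% with a negative slope). At an unadjusted p under 0.05 edgeR had 8063 genes (44.7%, either direction) and 0 of the 6, and limma voom also called 0 of the 6. On the epithelium score Angptl7 passed and the other 5 did not (8.06% of all genes passed with a positive and 5.02% with a negative slope, 906 genes, or 597 without naïve ZT4 replicate 4), with a slope of 3.06 (SE 0.89, adjusted p = 0.0158), while the others had slopes between -0.41 and 0.28. The epithelium score varied little between libraries, from 9.88 to 10.6 in CIA and from 10.0 to 10.5 in naïve mice. Which of the scores a gene follows apart from the others was not tested.

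**Figure D3:**
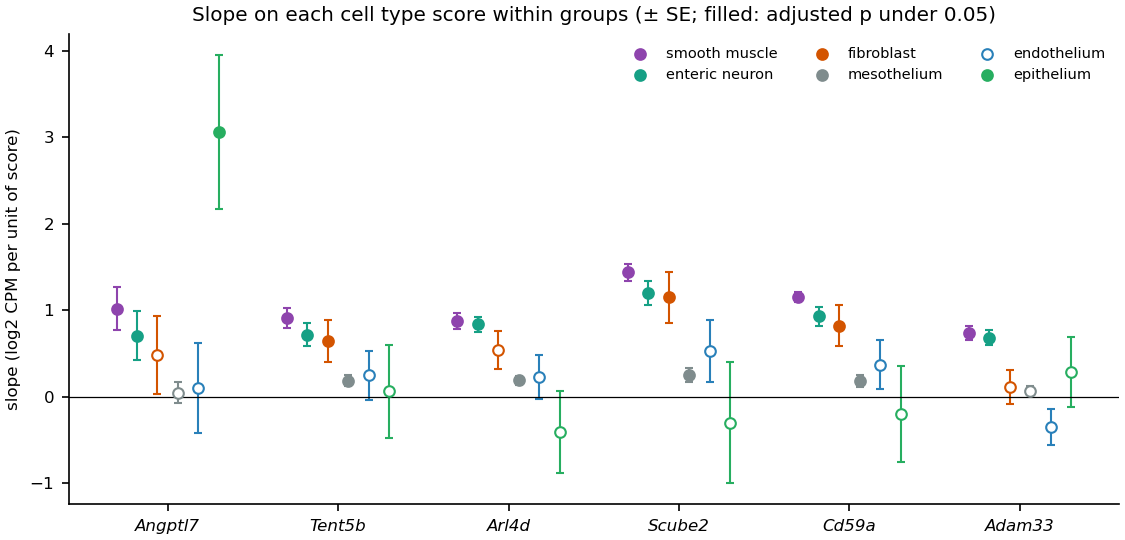
Slope (log2 CPM per unit of score, ± SE) of each gene on 6 cell type scores, from fits with a mean for each of the 12 groups (60 libraries). Filled points have an adjusted p under 0.05. All 6 genes have filled points for smooth muscle and enteric neuron, and Angptl7 alone has one for epithelium, at 3.06.

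With the smooth muscle score in the model, the difference between CIA and naïve mice shrank in all 6 genes, by unequal amounts. For Scube2 it went from 0.82 to -0.09 (SE 0.11) and for Cd59a from 0.80 to 0.07 (SE 0.06), 8.36% of its size. For Tent5b it went from 0.90 to 0.27 (SE 0.12, 29.7%), for Arl4d from 0.86 to 0.28 (SE 0.09, 32.5%) and for Adam33 from 0.75 to 0.30 (SE 0.07, 40.1%). Angptl7 kept the most, 0.60 of 1.1396 (SE 0.25, 53.04%), a 1.52-fold difference at a given score. The enteric neuron score in its place left 16.9% for Scube2 to 62.8% for Angptl7. The fibroblast, mesothelium, endothelium and epithelium scores, taken singly, left from 80.7% to 105.2%. These values come from the contrast by which the genes were chosen and carry no test, and how much of the difference the muscle share accounts for was not tested. Over all genes, the same model brought the calls from 3179 to 379 higher and from 3681 to 368 lower.

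**Figure D4:**
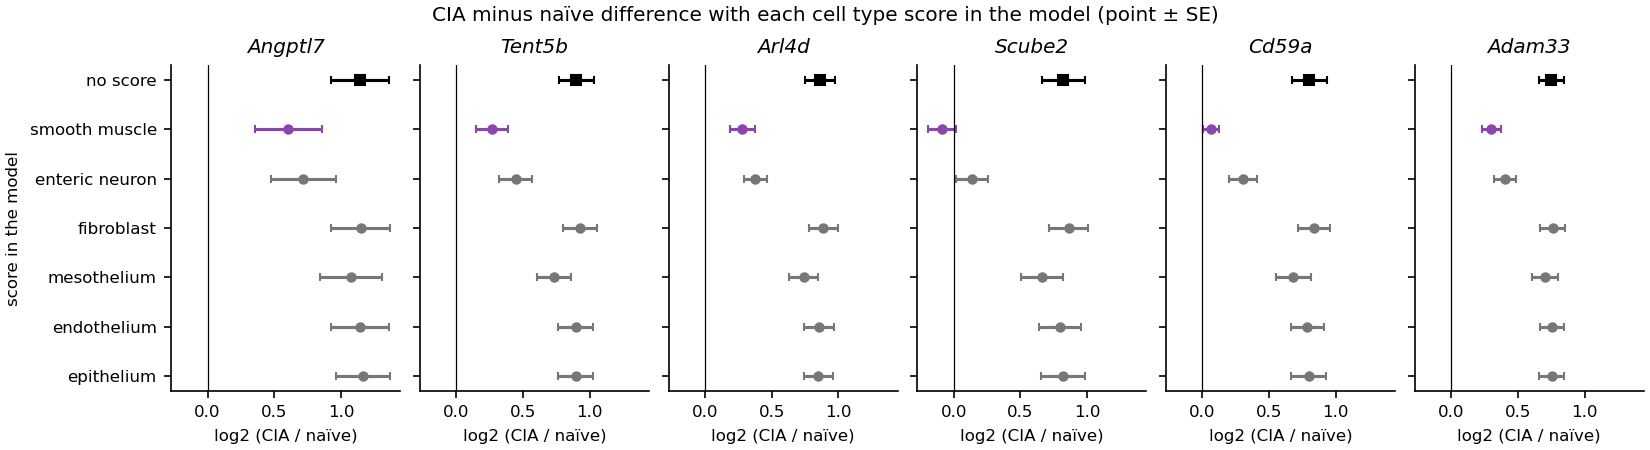
Log2 difference between CIA and naïve mice (point ± SE, 60 libraries) for each gene, without a score (black square) and with 1 cell type score in the model (purple for smooth muscle, grey for the rest). With the smooth muscle score the point lies at -0.09 for Scube2 and 0.07 for Cd59a, and at 0.60 for Angptl7.

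Among themselves the 6 genes were not equally close. Within groups the correlation between pairs of them, over 60 libraries, ran from 0.23 for Angptl7 and Arl4d to 0.89 for Scube2 and Cd59a. Once the smooth muscle score was removed as well, the 15 pairs lay between -0.29 (Angptl7 and Arl4d, and also Scube2 and Adam33) and 0.42 (Arl4d and Scube2, and also Angptl7 and Adam33).

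The genes most like each of the 6, by the correlation of within-group log2 levels over 60 libraries among genes with at least 10 CPM, were as follows. Angptl7 was closest to Frzb (0.89), a secreted Wnt antagonist, Fgf10 (0.86), a mesenchymal growth factor, and Parva (0.80), an actin-binding adhesion protein. Scube2 was closest to Stum (0.97), Eml1 (0.97), a microtubule-binding protein, and Svil (0.95), an actin-binding protein of muscle. Cd59a was closest to Dmpk (0.97), a muscle kinase, Pdlim3 (0.96) and Tpm1 (0.96), a tropomyosin. Adam33 was closest to Csrp1 (0.89), a LIM protein of smooth muscle, Mustn1 (0.89) and Cavin3 (0.88), a coat protein of caveolae. Tent5b was closest to Slmap (0.78), Hspb7 (0.78), a small heat shock protein of muscle, and Ptpn21 (0.77), a tyrosine phosphatase. Arl4d was closest to Gnao1 (0.88), a G protein subunit of neurons, Cpe (0.87), which trims peptide hormones, and Chn1 (0.87), a GTPase-activating protein. Of these 18 genes 3 (Csrp1, Pdlim3 and Tpm1) are in the smooth muscle list. With the smooth muscle score removed, Scube2 kept Stum and Eml1, Angptl7 kept Frzb and Tent5b kept Ptpn21, and Arl4d, Cd59a and Adam33 kept 0.

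A 24 h rhythm was fitted as a cosine and a sine within each treatment, and an amplitude is the height of the fitted curve over its mean on the log2 scale. By edgeR with Benjamini-Hochberg adjustment, 0 of the 6 genes were called rhythmic in naïve mice (31.3% of all genes) and 0 in CIA mice (30.6%). At an unadjusted p under 0.05, with n = 30 mice per treatment, edgeR had 7838 genes in naïve mice, with Tent5b among them (amplitude 0.27, p = 0.0463, adjusted p = 0.109), and 7407 in CIA mice, with Angptl7 among them (p = 0.0247). DESeq2 called 0 in either treatment, and limma voom 0 in naïve and 1 (Angptl7) in CIA mice. Angptl7 had the largest amplitude in both treatments, 0.47 with a peak at ZT12.6 in naïve mice (adjusted p = 0.197) and 0.51 with a peak at ZT12.1 in CIA mice (adjusted p = 0.0717). In CIA mice it passed the threshold without CIA ZT0 replicate 2 (adjusted p = 0.0395), without CIA ZT4 replicate 3 (adjusted p = 0.0252) and with the smooth muscle score in the model (amplitude 0.64, adjusted p = 0.00793). Tent5b passed in naïve mice without naïve ZT12 replicate 4 (adjusted p = 0.0263). Scube2 passed in naïve mice with the muscle score in the model, at a lower amplitude of 0.27 (adjusted p = 0.028). Amplitudes of the other genes ran from 0.05 (Adam33) to 0.37 (Scube2) in naïve and from 0.09 (Arl4d and Adam33) to 0.18 (Tent5b) in CIA mice, beside medians over all genes of 0.18 and 0.16. Whether the rhythms differ between treatments was not tested.

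The relatives and partners of the 6 genes, which the rule did not choose, were read from lists of their families and pathways, against the background of 17.6% of all genes called higher and 20.4% called lower in CIA mice by edgeR. For these lists n = 30 per treatment and p values are adjusted by Benjamini-Hochberg over all genes. At most 4 called genes per list, by adjusted p, and the closest paralogues are named by rule, while Angptl4, Gas1, Gli2, Ihh, Ptch1, C3, Cd55 and the terminal complement components were added after their values were seen. After the filter the lists held 10 angiopoietin-like, 8 poly(A) polymerase, 7 ARL4 and ARF6, 18 Hedgehog, 27 complement and 15 ADAM and TIMP genes. Together 17 of these genes were called higher and 17 lower, near the shares over all genes, so nothing is read from the totals. The median log2 fold change was between -0.07 and 0.05 in each list, beside -0.02 over all genes.

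In the angiopoietin-like family with its Tie receptors, 3 of 10 genes rose and 0 fell. Angptl1 rose from 7.57 ± 3.55 to 12.4 ± 5.42 CPM (log2 fold change 0.71, SE 0.18, adjusted p = 0.00105). Angpt1, a ligand of the receptor Tek, rose from 3.38 ± 1.04 to 4.51 ± 1.05 CPM (0.42, SE 0.10, adjusted p = 0.001) and Angptl2 from 94.9 ± 30.1 to 122.2 ± 40.3 CPM (0.36, SE 0.12, adjusted p = 0.0143). With the smooth muscle score in the model the values were -0.14 for Angptl1, 0.21 for Angpt1 and -0.23 for Angptl2, and none of them was called by edgeR. None of the relatives had a change as large as the difference of 1.1396 in Angptl7, and Angptl4, a lipase inhibitor, had 4.68 ± 3.65 and 4.52 ± 6.07 CPM in CIA and naïve mice.

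Among 8 poly(A) polymerases 0 rose and 4 fell, against the higher level of Tent5b in CIA mice. Tent5c, a paralogue of Tent5b known from B cells, fell from 7.01 ± 2.30 to 4.80 ± 1.18 CPM (log2 fold change -0.54, SE 0.11, adjusted p = 9.54e-05). Papolg, Mtpap and Tent2 fell by 0.17, 0.08 and 0.08 on the log2 scale (adjusted p = 0.0033, 0.0321 and 0.0344). The paralogue Tent5a, with 217.2 ± 43.8 CPM in CIA against 211.0 ± 48.3 CPM in naïve mice, did not pass (0.04, SE 0.080, adjusted p = 0.706).

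Of the ARL4 paralogues, ARF6 and the cytohesins, 1 of 7 rose and 1 fell. Cyth3, a cytohesin, rose by 0.13 on the log2 scale (SE 0.047, adjusted p = 0.0272), and Cyth4, a cytohesin of blood cells, went from 13.8 ± 3.82 to 10.3 ± 3.34 CPM (-0.42, SE 0.10, adjusted p = 0.00125). The paralogues Arl4a (0.07, SE 0.061) and Arl4c (-0.17, SE 0.095) did not pass, nor did Arf6 itself (-0.01, SE 0.041).

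In the Hedgehog pathway, 4 of 18 genes rose and 2 fell. Hhip, an inhibitor that binds the ligands and is itself a target of the pathway, fell from 16.4 ± 5.399 to 7.9995 ± 2.93 CPM (log2 fold change -1.04, SE 0.13, adjusted p = 6.45e-08). Gli1, a transcription factor and the usual readout of the pathway, fell from 9.40 ± 2.35 to 6.61 ± 1.00 CPM (-0.51, SE 0.075, adjusted p = 7.50e-07). The co-receptor Cdon rose from 48.7 ± 8.70 to 67.8 ± 11.5 CPM (0.48, SE 0.066, adjusted p = 2.60e-07) and the transcription factor Gli3 from 9.71 ± 2.44 to 14.9 ± 3.61 CPM (0.61, SE 0.092, adjusted p = 1.07e-06). The other genes that rose were Gas1, a co-receptor, and Gli2. Ihh, the main ligand of the adult colon epithelium, had 89.7 ± 18.97 CPM in CIA against 99.4 ± 20.2 CPM in naïve libraries (adjusted p = 0.12), and the receptor Ptch1 had 10.4 ± 2.60 and 11.2 ± 3.20 CPM (adjusted p = 0.411). The paralogues of Scube2 did not pass, with log2 fold changes of -0.01 (SE 0.064) for Scube1 and 0.37 (SE 0.16, adjusted p = 0.0585) for Scube3. Within groups Hhip had a slope of -0.91 and Gli1 of -0.32 on the smooth muscle score, Gli3 0.77 and Cdon 0.32. With that score in the model, edgeR still called Hhip (-0.49, adjusted p = 0.0344), Gli1 (-0.32, adjusted p = 0.0332) and Cdon (0.28, adjusted p = 0.027). Gli3 was not called (0.10, adjusted p = 0.41).

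Of 27 complement genes 4 rose and 5 fell. C1qa, C1qb and C1qc, the chains of the recognition protein C1q made by macrophages, fell by 0.43, 0.59 and 0.46 on the log2 scale (adjusted p = 6.11e-06, 2.32e-07 and 7.41e-07), beside a macrophage list that they belong to and of which 11 of 12 genes were lower. Cd59b, the second mouse copy of the inhibitor, rose from 1.17 ± 0.488 to 1.72 ± 0.595 CPM (0.57, SE 0.15, adjusted p = 0.00177). Reads of Cd59a and Cd59b, which are similar in sequence, may have been divided between them, and Cd59a had 51.99 ± 20.9 CPM to the 1.17 of Cd59b in naïve mice. C3, the central component, rose from 155 ± 75.2 to 259.9 ± 154 CPM (0.74, SE 0.20, adjusted p = 0.00248). The other surface inhibitor Cd55 had 50.3 ± 8.90 and 48.1 ± 10.3 CPM (adjusted p = 0.493), and of the terminal components, C9 rose from 0.124 ± 0.119 to 0.274 ± 0.236 CPM, C7 fell from 1.94 ± 1.39 to 1.276 ± 0.870 CPM, and Hc, C6 and C8g did not pass.

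Of 15 ADAM and TIMP genes 5 rose and 5 fell. Adam11 rose from 15.7 ± 4.53 to 24.4 ± 7.26 CPM (log2 fold change 0.64, SE 0.11, adjusted p = 6.11e-06) and Adam22 from 14.7 ± 3.61 to 21.0 ± 4.55 CPM (0.52, SE 0.088, adjusted p = 7.05e-06), both members without protease activity that are known from neurons. Timp3, an inhibitor of metalloproteases bound to the matrix, rose from 204 ± 40.4 to 275 ± 61.9 CPM (0.43, SE 0.081, adjusted p = 3.76e-05). Adamdec1, a metalloprotease of the gut mucosa, fell from 489 ± 232 to 293 ± 109 CPM (-0.74, SE 0.14, adjusted p = 3.12e-05). With the smooth muscle score in the model, the related genes of all 6 lists went from 17 to 1 called higher (Cdon). Those called lower went from 17 to 6 (Hhip, Gli1, C1qa, C1qb, C1qc and C7).

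**Figure D5:**
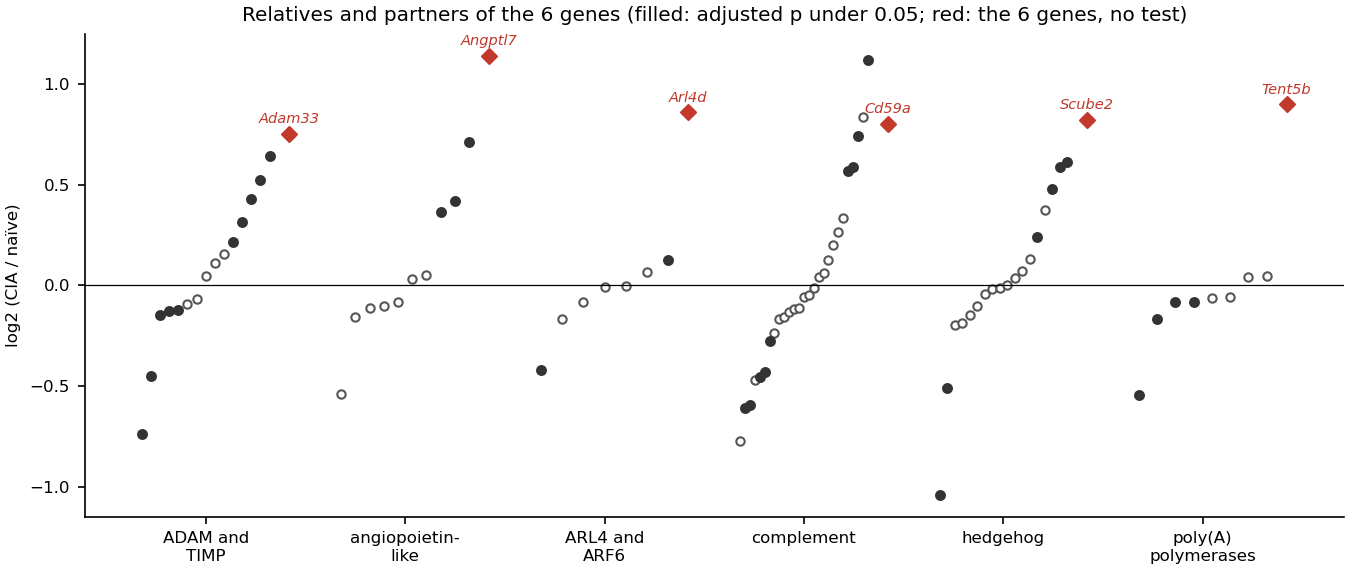
Log2 fold change (CIA over naïve, 30 mice per treatment) of the measured genes of each family or pathway, in order of size within a list. Filled circles have an adjusted p under 0.05, open circles do not, and red diamonds are the 6 genes, shown without a test. Apart from C9 in the complement list, no filled circle lies above the diamond of its list.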

How the data were processed

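Stranded mRNA libraries were made from mid-colon RNA of 60 mice, 5 per treatment and time point, and sequenced. The authors deposited raw read counts per gene, 1 whole number per gene and library. The submitters' processing notes name bcl2fastq 2.17.1.14, Trimmomatic 0.36, STAR 2.5.3 and Rsubread. Whether the counting used read pairs or strand is not given in the sources used here. Even numbers made up 74.0% of the low counts (up to 20) but 50.5% of the high ones, so an alternative with halved counts was run.

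Genes were filtered with edgeR's filterByExpr (minimum count 10, minimum total count 15) and scaled by TMM. Tests were edgeR 4.0.16 quasi-likelihood F tests (R 4.3.3) with Benjamini-Hochberg adjustment over 18057 genes at a threshold of 0.05, with treatment only for CIA against naïve, 12 group means for slopes (trended dispersion from the 12 groups) and a cosine and sine of 24 h for rhythm. Log2 CPM used a prior count of 2. Alternatives were limma voom (limma 3.58.1), DESeq2 1.42.0, its size factors, no filter, other covariates, a replicate block and each library left out. On simulated counts, 85 of 100 slopes of 0.5, 98 of 100 slopes of 1, 52 of 100 rhythms of amplitude 0.25 and 92 of 100 of amplitude 0.5 (naïve) were recovered. Calls among genes with no planted effect numbered 6 for the slope and 9 for the rhythm. Effects were planted in genes drawn at random, each with its own spread. Recovery for a gene as variable as Angptl7 was not tested.

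The 6 genes and the gene lists were chosen with earlier results of these data known. The named genes were the 6, the 3 most similar to each, the called relatives (at most 4 per list) and the paralogues. Each library is 1 mouse. Libraries within a group share no other unit that the labels name.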

Additional observations from a re-analysis of the deposited data

Results flagged for a closer look

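Within the 72 groups of 5 libraries (6 genes, 2 treatments, 6 times), 7 had a library that stood apart from the other 4 by Dixon's criterion, which chance gives in about 1 in 20 groups, or 3.6 of 72. CIA ZT4 replicate 3, the library with the highest smooth muscle score of all (9.82), stood apart in 3 genes. It had 47.8 CPM of Tent5b where the other 4 had 11.1 to 17.2, 38.6 CPM of Arl4d where they had 18.3 to 23.6, and 164.0 CPM of Cd59a where they had 63.9 to 90.8. Naïve ZT8 replicate 2, with the highest naïve smooth muscle score (9.46), stood apart in 2 genes, with 25.8 CPM of Scube2 against 9.73 to 11.7 and 128.7 CPM of Cd59a against 45.4 to 56.1. The part of the muscle share in these values was not tested.

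In Angptl7, CIA ZT8 replicate 4 stood below its group with 22.7 CPM against 67.5 to 85.2 (smooth muscle score 8.57), and naïve ZT20 replicate 3 stood above its group with 34.7 CPM against 15.9 to 20.4 (score 9.00).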

How the results depend on the processing

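The smooth muscle slope was called in all 6 genes under every alternative over both treatments, with slopes between 0.67 (Adam33) and 1.46 (Scube2) when each library was left out, and in naïve mice alone Angptl7 missed the threshold at 1.04, and at 1.41 (adjusted p = 0.0847) without the 3 libraries of lowest score, an alternative chosen after seeing the data. Genes called with a positive and negative slope numbered 3410 and 4322, against 1587 and 883 in naïve mice alone and 1340 and 1510 without those 3. Once the muscle score entered as a covariate, the CIA difference was 0.27 (Tent5b), 0.28 (Arl4d), -0.087 (Scube2, reversed), 0.067 (Cd59a) and 0.30 (Adam33), and with the neuron score added, also chosen after seeing the data, 0.26, 0.27, -0.096, 0.067 and 0.30. With the neuron score alone it was 0.38 for Arl4d and 0.14 for Scube2. The muscle covariate also brought the genes called to 379 higher and 368 lower and the related genes to 1 and 6. Rhythm with time as a factor, which spends more degrees of freedom, called 3667 genes in CIA and 2891 in naïve mice, against 5518 and 5655. Of the 6 genes, 1 was rhythmic in CIA mice with limma voom, with the muscle covariate and without the 2 libraries that stood apart (CIA ZT4 replicate 3 and naïve ZT8 replicate 2, chosen after seeing the data), and 1 in naïve mice with the muscle covariate. Leaving out each library gave 0 to 1 in either treatment, 2 to 4 mesothelium calls and 0 to 1 genes with a slope that differed between treatments, which was 1 without a filter on low counts. The cause of these changes was not tested. Same-numbered libraries did not deviate together (30 pairs, correlations from -0.47 to 0.45, 8 over 0.1), so the numbers were not taken as pairs. A replicate block kept 6 of 6 muscle slopes, left 5 of 6 enteric neuron calls (Angptl7 lost), 2 of 3 fibroblast calls (Tent5b lost) and 1 of 4 mesothelium calls, and, with time point as a further term, gave 3532 genes higher and 4157 lower in CIA mice. Counts of the 6 genes ran from 118 to 6924 per library, so spread between libraries, more than counting error, limits these values. Each mouse gave 1 library of 1 piece, so mouse, piece and library preparation cannot be told apart in that spread.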
